A study of Mus musculus with 8 samples.

Results

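Accessible chromatin 18 h after retinoic acid (RA) was compared with accessible chromatin at 0 h in sorted mouse germ cells. The comparison used 4 ATAC-seq libraries, 2 at each timepoint, and the regions were formed by merging every peak of these libraries that overlapped another by at least 1 bp. This gave 81567 regions, against 87144 when all 8 libraries of the series were merged. The animals were PIWIL2-eGFP mice, in which the promoter of the germ cell gene Piwil2 drives eGFP, and eGFP-positive cells were sorted from the testes of 1 mouse for each library. The labels give the strain background as C57BL/6 x 129s4/SvJae, whereas the methods give a C57BL/6 x SJL cross. All mice were fed WIN 18,446, a compound that blocks RA synthesis, for 7 days from 2 days post partum, so the 0 h animals carried this treatment too. The 0 h group received no RA and holds undifferentiated type A spermatogonia. The 18 h group received RA at 9 days post partum, and its cells are described as A1 and A2 spermatogonia.

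RA is made from vitamin A in the testis and acts through RAR and RXR receptors, which sit on DNA with coactivators or corepressors. In the spermatogonia it triggers the step from undifferentiated to differentiating cells, in which the receptor tyrosine kinase KIT and the meiotic gatekeeper STRA8 are switched on. In ATAC-seq a transposase cuts and tags DNA where nucleosomes leave it open. The value used for a region is the coverage by tags at the highest summit that a library has in it, after the authors had brought all libraries to the same number of tags. No peak had a value under 24, so a region without a peak in a library has an unknown low value there and not a value of 0.

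Several windows of 200 bases, all but that of Kit around the summit, show the kinds of sequence that the results below turn on. They were read from GRCm38 (mm10) and are on the + strand. Kit is shown because its start region was among the few gene starts that were raised at 18 h relative to the library medians. Its summit lies in the transcribed leader, so its window was moved to chr5:75574716-75574915, just outside the leader and beside the summit. Capitals mark GGGCGG, the letters bound by SP and KLF factors.
Kit: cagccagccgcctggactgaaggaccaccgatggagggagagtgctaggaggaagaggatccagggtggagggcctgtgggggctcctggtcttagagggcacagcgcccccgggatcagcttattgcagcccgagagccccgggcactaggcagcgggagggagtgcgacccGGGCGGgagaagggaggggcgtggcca
The next windows come from the raised regions that hold ACANTGT, the core of the motif of DMRT factors, which is marked in capitals. The first lies at chr4:41678365-41678564 in Cntfr, 18595 bp from its start, and the second at chr11:75221181-75221380 in Rtn4rl1, where the letters stand 5 times in a tandem repeat.
raised 1: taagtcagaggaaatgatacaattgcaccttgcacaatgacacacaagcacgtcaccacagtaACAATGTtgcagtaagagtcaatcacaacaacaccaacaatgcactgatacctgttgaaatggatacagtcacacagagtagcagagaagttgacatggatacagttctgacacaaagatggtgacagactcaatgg
raised 3: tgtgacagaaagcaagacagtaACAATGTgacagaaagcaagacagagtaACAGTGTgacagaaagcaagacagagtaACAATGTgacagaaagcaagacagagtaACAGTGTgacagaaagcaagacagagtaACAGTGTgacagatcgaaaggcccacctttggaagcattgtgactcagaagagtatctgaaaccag
The following window, at chr16:89293885-89294084, belongs to the region with the largest relative rise, one of many regions that are 379, 380 or 381 bp long, and has no capitals.
common length: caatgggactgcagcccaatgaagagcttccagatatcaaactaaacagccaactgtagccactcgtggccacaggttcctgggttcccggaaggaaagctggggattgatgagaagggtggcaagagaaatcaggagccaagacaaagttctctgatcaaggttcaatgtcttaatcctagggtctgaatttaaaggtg
Regions that were lowered are represented by windows 4591 bp upstream of the Foxp1 start used in the table, at chr6:99439837-99440036, and at chr4:47158877-47159076, to which no gene was assigned. Capitals mark TGTTTAC, the forkhead motif, on either strand.
lowered 1: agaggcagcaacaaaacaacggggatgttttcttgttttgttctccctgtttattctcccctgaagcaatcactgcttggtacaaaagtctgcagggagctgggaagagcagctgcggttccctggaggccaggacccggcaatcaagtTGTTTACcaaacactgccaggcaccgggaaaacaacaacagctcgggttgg
lowered 2: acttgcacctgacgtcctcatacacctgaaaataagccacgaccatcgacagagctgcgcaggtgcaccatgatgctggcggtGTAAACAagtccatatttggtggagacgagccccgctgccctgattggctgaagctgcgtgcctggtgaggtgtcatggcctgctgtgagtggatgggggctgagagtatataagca
The last windows show related sequences at different places in the genome that fell together, named family A and family C here, with capitals marking CCAAT, the letters bound by NF-Y, on either strand. They lie at chr1:173733309-173733508, chr14:23169437-23169636, chr14:48998813-48999012 and chr13:12176861-12177060. The whole regions behind the family A windows share 85 runs of 12 bases and those behind the family C windows share 30.
family A 1: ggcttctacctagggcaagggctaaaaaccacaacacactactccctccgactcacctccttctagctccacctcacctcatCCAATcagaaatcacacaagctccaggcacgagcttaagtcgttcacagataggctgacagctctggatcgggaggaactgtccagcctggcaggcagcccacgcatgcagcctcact
family A 3: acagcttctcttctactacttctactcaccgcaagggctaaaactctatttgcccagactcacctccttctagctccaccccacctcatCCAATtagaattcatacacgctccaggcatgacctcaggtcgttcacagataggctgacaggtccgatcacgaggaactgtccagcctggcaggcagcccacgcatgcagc
family C 1: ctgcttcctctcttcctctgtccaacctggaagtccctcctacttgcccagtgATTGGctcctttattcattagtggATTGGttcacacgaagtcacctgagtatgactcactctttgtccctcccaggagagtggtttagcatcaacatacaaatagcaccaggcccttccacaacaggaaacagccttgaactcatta
family C 2: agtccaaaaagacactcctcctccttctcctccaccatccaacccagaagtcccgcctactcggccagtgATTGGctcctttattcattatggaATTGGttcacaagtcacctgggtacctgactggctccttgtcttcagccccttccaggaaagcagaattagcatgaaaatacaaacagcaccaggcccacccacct

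The sorted cells were checked against marker genes by the regions at their starts. The germ cell genes Ddx4, Dazl, Piwil2, Mael and Mov10l1 had a peak at their start in all 4 libraries. The Ddx4 start had values of 218 and 266 at 0 h and 72 and 120 at 18 h, and the Piwil2 start, whose promoter also drives the eGFP, had 1073 and 1009 at 0 h and 494 and 551 at 18 h. Tdrd1 had 148 and 231 at 0 h and no start peak at 18 h. Summed over the 19 germ cell and piRNA genes, the start values were 5529 and 6689 at 0 h and 2270 and 2998 at 18 h. Markers of Sertoli cells, the somatic nurse cells, also had start peaks, at 8 and 7 of 11 genes at 0 h and at 2 and 3 of 11 at 18 h. Their summed values were 801 and 938 at 0 h and 88 and 195 at 18 h. Sox9, Amh, Cldn11 and Dhh had start peaks in both 0 h libraries and in neither 18 h library, while Wt1 and Kitl had them in all 4 libraries. Myoid cell markers summed to 512 and 601 at 0 h and 163 and 179 at 18 h, macrophage markers to 282 and 292 and then 51 and 45, and endothelial markers to 185 and 266 and then 55 and 94. Of the 7 listed Leydig cell genes 4 were analysed. Among these Lhcgr alone had a start peak, with 74 and 77 at 0 h, no peak in 18 h replicate 1 and 32 in 18 h replicate 2. An open start is not a transcript, and the part that other cell types had in the results was not tested. Fewer cells of a type and less open chromatin per cell cannot be told apart in such bulk libraries.

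The number of called peaks was lower at 18 h, at 28889 and 34423 against 72215 and 69089 at 0 h. The sequence covered by peaks was 11.4 and 15.2 Mb at 18 h and 36.2 and 33.4 Mb at 0 h, and the mean signal over the covered sequence was 69.8 and 79.4 against 92.1 and 107. The groups did not overlap in any of these measures, but with 2 libraries against 2 an exact permutation test cannot go below a two-sided p of 0.333. Of the 59209 regions that had a peak in both 0 h libraries, 23614 (39.9%) were kept, with a peak in both 18 h libraries. A further 9750 (16.5%) were partly kept, with a peak in 1 of them, and 25845 (43.7%) were lost, with a peak in neither. Only 178 regions were gained, with a peak in both 18 h libraries and in neither 0 h library. Pairs of single libraries gave kept shares from 36.8% to 46.7%. Without 18 h replicate 1, which had the fewest peaks, the kept share was 52.6%.

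These calls depend on how high the signal stood above the calling limit. When each library was held to its 28889 highest peaks, 77.8% of the regions of both 0 h libraries were kept, 2326 were lost and 1426 were gained. Among the kept regions the median value was 178 and 206 at 0 h, then 71 and 87 at 18 h. The 18 h medians were 2.44-fold lower, a shift of -1.28 on the log2 scale. Of the 23614 kept regions, 22747 had both 18 h values below both 0 h values and 99 had both above. A shift of this kind cannot be told apart from a difference in the share of tags that fell into open regions, because the tag numbers per library were made equal. Changes of single regions are therefore given relative to the median of each library, and the value as deposited is given beside them where it differs in direction.

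Whether a region was kept followed its height at 0 h. In the lowest of 10 equal classes of 0 h height, with a mean 0 h value from 28.5 to 44.5, 1.08% of regions were kept and 92.7% were lost. In the fifth class the kept share was 19.4%, in the seventh 53.4% and in the highest, from 307 to 1761, it was 99.6%. Only 2 of the regions in the highest class were lost. Of the regions with both 0 h values at 100 or more, 81.6% were kept.

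**Figure D1:**
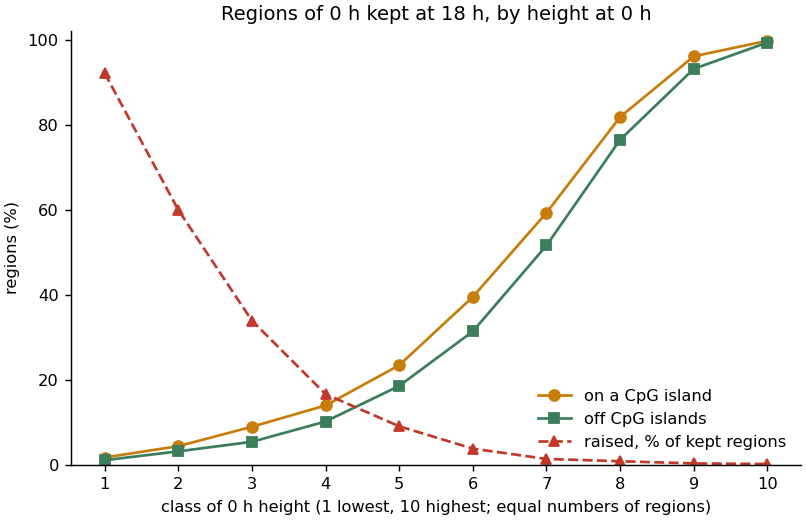
Percent of the regions called in both 0 h libraries that were kept at 18 h, on and off CpG islands, in 10 classes of equal number by mean 0 h summit value, with the percent of kept regions that were raised relative to the library medians. From the lowest to the highest class the kept share rose from 1.69% to 99.8% on islands and from 1.06% to 99.3% off them, and the raised share fell from 92.2% to 0.169%.

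Gene starts, which here are regions with their peak within 1000 bp of an annotated start, were kept more often than other regions. The kept share was 68.9% at gene starts (10046 of 14574), 32.1% inside genes, 33.3% in the flanks of genes and 27.3% where no gene was assigned. On CpG islands, stretches rich in the CG dinucleotide that mark many promoters, 70.2% were kept, against 30.3% off islands. At gene starts 77.9% were kept on an island and 42.3% off one. Gene starts and islands also had higher values at 0 h, with medians of 183.5 and 187.5 against 70.5 for regions with no gene. Within the height classes the kept share at gene starts was higher by 4.22 percentage points on average, with class values from -0.76 to 10.3, and on islands it was higher by 3.86 points, from 0.414 to 8.12. The difference of 38.5 points between gene starts and other regions thus shrank to these values among regions of similar height. As a share of all peaks of a library, islands held 21.3% and 22.5% at 0 h and 38.9% and 37.5% at 18 h, shares that compare unequal numbers of peaks. Peaks with no gene made up 31.8% and 30.7% at 0 h and 21.5% and 22.3% at 18 h, but with equal numbers of peaks this share was 0.133 points higher at 18 h. The autosomes and the X had kept shares between 35.0% on chromosome 10 and 44.9% on chromosome 7. Of the regions whose window is mostly repeat sequence, 24.8% were kept.

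Viewed by gene, 20547 genes had a region in both 0 h libraries. All such regions were kept at 6147 genes and all were lost at 2228. At 14734 genes the start itself was open at 0 h, and it was kept at 10981 of them and lost at 1958. Many genes kept their start and lost other sites, since 4931 of the 8391 genes with a kept start and another 0 h region lost at least 1 of these. The converse, a lost start with a region kept elsewhere, was found at 949 genes. The gene with the most lost regions was Ctnna3, an alpha-catenin gene, with 21 of 35 lost and its start kept, followed by Camta1 with 20 of 48. Both are very long genes and were chosen after their values were seen.

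The 5 lost regions with the highest 0 h values were all assigned to a gene, and none was at a start. Rasl10a, a Ras-like GTPase gene, had 349 and 378 in an exon at chr11:5059731-5060297. Mir1894 had 280 and 325 in a region 1183 bp from its start that lies in an intron of Ppp1r10. An intronic region of Zfpm1, which encodes a cofactor of GATA factors, had 294 and 277 at chr8:122294125-122294662. These values lie over the median of kept regions at 0 h, and no peak was called there in either 18 h library. The other regions in this group were 2716 bp upstream of the casein kinase gene Csnk1g2, with 272 and 365, and in an exon of Gm10614, with 309 and 272.

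The gained regions were few and low. Their median value was 51 in each 18 h library. The highest was in an intron of Sema4b, a semaphorin gene, with 139 and 146 at 18 h. A region at chr4:3063943-3064144 had 129 and 135, an intronic region at Gpr75 had 123 and 156, and an intronic region of Nkain2 had 109 and 121. The start of Gpsm3, a modulator of G protein signalling, had 116 and 140. Of the 178, 8 were at gene starts (4.49%), 81 inside genes and 62 with no gene. Gene starts made up 9.77% of the lost regions, which were low as well. Of the gained regions, 45 (25.3%) had a length of 379, 380 or 381 bp, which 1.26% of the lost regions had. These lengths were picked as the 3 commonest among the gained regions, so a high share there follows from the choice.

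At the kept regions, relative heights were tested with limma on log2 values centred on the library medians, with Benjamini-Hochberg adjustment over all 23614. This called 679 regions raised (2.88% of those tested) and 131 lowered (0.555%), and 3858 had an unadjusted p under 0.05. Raised regions made up 83.8% of the calls. On the values as deposited, 58 regions were higher at 18 h (0.246%) and 21848 were lower (92.5%), so that 0.265% of the calls were higher. With centring on the median of all peaks of a library, 100 were raised and 19919 lowered, or 0.5% raised. All 58 regions that were higher as deposited were among the 679, and none was at a gene start. Of the raised regions, 223 had a deposited change above 0 and 456 below 0, with a median of -0.13 on the log2 scale. In 99 raised regions both 18 h values were above both 0 h values, in 180 both were below, and in the others the groups overlapped or touched. All 131 lowered regions were also lower as deposited, with a median 4.90-fold lower value, against 2.34-fold for all kept regions.

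The counts rested on single libraries. Without 18 h replicate 1 there were 77 raised and 4 lowered regions, and without 18 h replicate 2 there were 306 and 20. Without 0 h replicate 1 there were 1215 and 205, and without 0 h replicate 2 there were 907 and 418. In these fits the single library left in a group was assumed to vary like the others. Quantile normalization gave 126 and 41, of which 126 and 38 were among the regions named above.

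Most raised regions were low at 0 h. Their median values were 67 and 69 at 0 h and 65 and 67 at 18 h, and those of the lowered regions were 253 and 254 at 0 h and 45 and 57 at 18 h. A low region counts as kept only if it stays above the calling limit at 18 h, so low kept regions had to hold their height. Of the 4601 kept regions with a 0 h value under 100 in the lower library, 572 were raised and none was lowered. Of the 19013 with 100 or more in both, 107 were raised and 131 lowered, so fewer were raised than lowered. When these 19013 were fitted alone, 94 were raised and 77 lowered, and 55.0% of the calls were raised. The same limit on the height bounds the lowered regions, all of which were high at 0 h. The raised and lowered counts are therefore not read as an account of all low regions.

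**Figure D2:**
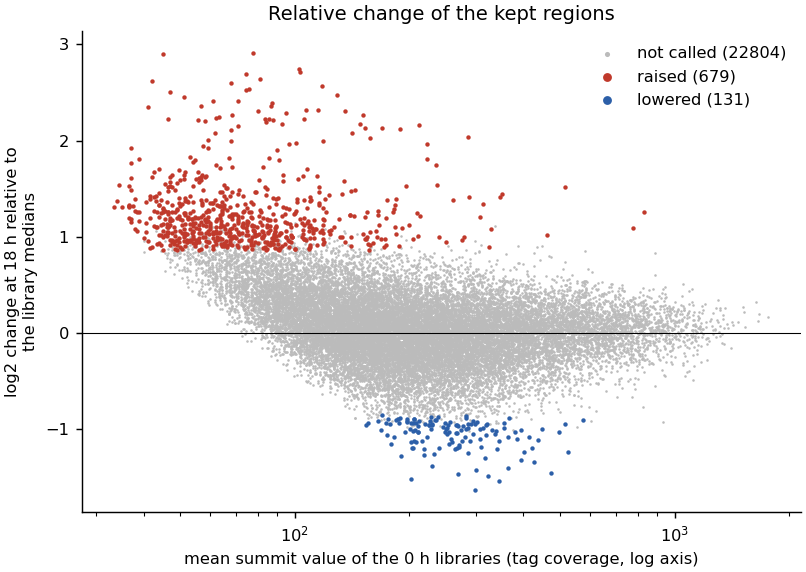
Log2 change at 18 h relative to the library medians against the mean 0 h summit value for the 23614 kept regions, with 679 raised and 131 lowered regions coloured. The empty corner at the lower left is where a fall would take a region under the calling limit, and the raised regions lie mostly under a 0 h value of 100.

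The largest relative rise was at chr16:89293794-89294174, an intergenic region with 85 and 70 at 0 h, then 233 and 243 at 18 h. Its relative log2 change was 2.91 ± 0.25 (SE, n = 2 against 2, limma adjusted p = 6.12e-06). At chr12:110202235-110202614 the values were 41 and 49 at 0 h and 137 in both 18 h libraries, a relative change of 2.90. These 18 h values were higher than the 0 h values on the deposited scale as well. A region at chr15:74187281-74187931 rose from 115 and 90 to 297 and 263. The other 7 regions of the 10 with the largest rise, among them 1 upstream of 2410021H03Rik and 1 downstream of the kinase gene Mapk4, had relative changes from 2.54 to 2.71. The groups did not overlap in any of these 10 regions, none lay within 1000 bp of a gene start, and 9 had a length of 379, 380 or 381 bp.

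Regions of these lengths stood out as a group, which was recognised after the values were seen. Of the 122 kept regions of these lengths 60 were raised (49.2%), against 2.63% of the other kept regions, and none was lowered. They also made up 36 of the 58 regions that were higher as deposited. These shares are not compared at equal height. Among regions called in both 0 h libraries the median 0 h value was 69.5 for these lengths and 92 for the others. No region below the eighth of the 10 height classes was lowered, whatever its length. With these lengths left out, the fit called 585 regions raised and 117 lowered. What sets these lengths was not tested.

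At gene starts, 65 of the 10046 kept regions were raised (0.647%) and 17 were lowered (0.169%), lower shares than over all kept regions. The start region of Slc39a11, a zinc transporter gene, had 212 and 234 at 0 h and 298 and 343 at 18 h, with a relative change of 1.81 and a deposited change of 0.52 that was not past the threshold (limma adjusted p = 0.106). The Stra8 start region, at chr6:34920635-34921055, had 123 and 159 at 0 h and 133 and 192 at 18 h, with a relative change of 1.48 ± 0.24 (SE, n = 2 against 2, limma adjusted p = 0.00146). The Kit start region, at chr5:75574643-75575317 with the window printed above, had 96 and 144 at 0 h and 107 and 150 at 18 h, with a relative change of 1.39 ± 0.24 (SE, n = 2 against 2, limma adjusted p = 0.0029). At Stra8 and Kit the groups overlapped on the deposited scale. There the changes were 0.19 and 0.11 on the log2 scale and were not past the threshold (limma adjusted p = 0.552 and 0.74). With centring on the median of all peaks they were 0.47 and 0.39 and not past it either. The call at Kit was also lost without 18 h replicate 1 (adjusted p = 0.0708) and without 18 h replicate 2 (adjusted p = 0.0577). At each of these starts 1 of the 18 h values lay between the 0 h values and the other above them, whereas the median kept region was 2.34-fold lower. The start of Csrp1, a LIM domain gene, was raised too, from 42 and 75 to 56 and 64. No gene start was past the threshold for a higher value at 18 h as deposited.

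**Figure D3:**
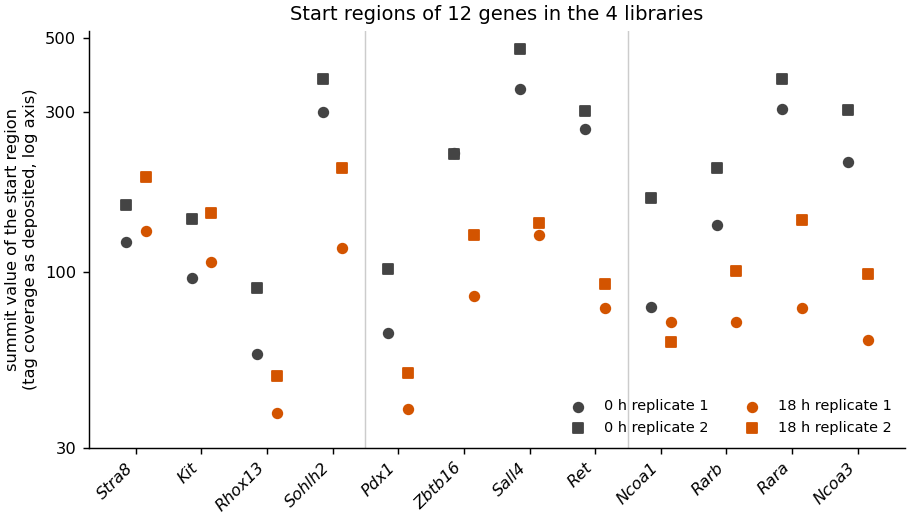
Summit values as deposited, on a log axis, of the start regions of 12 genes in the 4 libraries, with regulators of differentiation at the left, undifferentiated markers in the middle and RA receptors and coactivators at the right. The 18 h values overlap the 0 h values at Stra8 and Kit and lie below both 0 h values at the other 10 genes, and the 0 h values of Zbtb16 (227 and 226) lie on top of each other.

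The lowered regions were led by a region in an intron of AI607873, an interferon-inducible gene also called Ifi207. It had 314 and 283 at 0 h and 41 and 38 at 18 h, a relative change of -1.63 ± 0.25 (SE, n = 2 against 2, limma adjusted p = 0.000931), and its window is printed as family A 1. The region 4591 bp upstream of the Foxp1 start used in the table, which GENCODE places in an intron of this forkhead factor gene, had 370 and 319 at 0 h and 36 and 65 at 18 h, a relative change of -1.54. A region 2838 bp upstream of Rragd, which encodes a GTPase of the lysosomal mTORC1 pathway, had 506 and 440 at 0 h and 61 and 82 at 18 h, a relative change of -1.45. In each case the 18 h values were several times lower, and the groups did not overlap. The remaining 7 of the 10 largest falls, in introns of Dera (downstream of it in the table) and Camsap2, in an intron of an unnamed transcript on chromosome 4 and at 4 intergenic places, had relative changes from -1.34 to -1.52. Without 18 h replicate 1, 8 of these 10 calls were lost (Foxp1, Rragd, Dera and Camsap2 among them) and none changed sign. Of the 131 lowered regions, 50 had no assigned gene, 42 lay inside genes, 22 in flanks and 17 at a gene start. Gene starts were 13.0% of the lowered regions and 42.5% of all kept regions, and regions with no gene were 38.2% and 20.7%. Lowered starts with large falls included those of Trim12c, Galnt9, Spef2 and Rab3c. Trim12c, a tripartite motif gene, had 359 and 369 at 0 h and 55 and 90 at 18 h. Spef2, a gene of the sperm flagellum, had 170 and 240 at 0 h, then 40 and 42 at 18 h.

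The gene lists were read against all genes, where 74.5% of the starts open in both 0 h libraries were kept, the median 0 h value was 209, and 55 starts were raised and 17 lowered. Of 18 such starts among markers of undifferentiated spermatogonia, with a median 0 h value of 152.75, 10 were kept, and none was raised or lowered. Gfra1, the GDNF coreceptor gene, lost its start peak from 62 and 70, Nanos3 from 191 and 107, Pou5f1 from 47 and 41 and Pax7 from 59 and 47. Among the kept starts Ret, the GDNF receptor gene, had 267 and 302 at 0 h and 78 and 92 at 18 h, a relative change of -0.46. Zbtb16, which encodes the PLZF factor, had 227 and 226 at 0 h and 85 and 129 at 18 h, a relative change of 0.17. Neither differed from the library medians past the threshold. Of the 4 open starts among markers that the study itself picked, 2 were kept, and Ptch1, a hedgehog receptor gene, lost its start peak from 214 and 328.

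Of the 9 open starts among regulators of differentiation 7 were kept, with a median relative change of 0.45 against 0.07 for all genes. The median 0 h value of the 9 was 121.5, against 209 for all genes, so these medians are not compared at equal height. Low kept regions had higher relative changes, with medians of 0.25 in the sixth of the 10 height classes, 0.10 in the seventh and 0.01 in the highest. The value of 121.5 lies in the seventh class. Stra8 and Kit were the members that passed the threshold. Sohlh2, a helix-loop-helix factor gene, had 301 and 378 at 0 h and 118 and 204 at 18 h, a relative change of 0.16. Dmrtb1, which encodes a DMRT factor of the switch from mitosis to meiosis, lost its start peak from 93 and 78, and Dnmt3a lost its start peak from 80 and 123.

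The RA pathway was described from receptors to enzymes. Of 11 open starts of RA receptors and cofactors 8 were kept and none was called. Rara, a receptor gene of spermatogonia, had 307 and 376 at 0 h and 78 and 143 at 18 h, a relative change of -0.40. Rarb had 138 and 205 at 0 h and 71 and 101 at 18 h, and the receptor genes Rarg and Rxra lost their start peaks. Of 11 open starts of genes for RA synthesis, binding and breakdown 4 were kept (36.4%) and 6 were lost, and their median 0 h value was 105.5. In the height class that holds this value, 39.3% of all regions at gene starts were kept, so the share of the list lay near it. The lost starts were those of Aldh1a1, Rdh10, Dhrs3, Rbp4, Stra6 and Cyp26a1. Cyp26a1, whose enzyme degrades RA and which RA induces in many tissues, had 95 and 116 at 0 h and no peak at 18 h. Aldh1a2, a gene of the final step of synthesis, was kept, with 254 and 264 at 0 h and 64 and 125 at 18 h. Of 11 open starts among known RA-responsive genes 5 were kept, and Stra8 and Kit again were the 2 that were raised.

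Genes of meiotic prophase kept 22 of 23 starts (95.7%), with a median 0 h value of 252 and a median relative change of 0.17. In the height class that holds this value, 96.2% of all regions at gene starts were kept. Rec8, a meiotic cohesin gene, had 282 and 262 at 0 h and 144 and 179 at 18 h. Mei4, whose product serves the formation of meiotic breaks, had 476 and 460 at 0 h and 84 and 162 at 18 h. Spo11, the gene of the enzyme that makes these breaks, lost its start peak from 80 and 125. Neither Rec8 nor Mei4 was past the threshold. Among ribosomal protein genes 41 of 42 starts were kept, among cell cycle genes 24 of 27, among germ cell and piRNA genes 15 of 18 and among chromatin enzymes 24 of 29. Immediate early factors kept 8 of 11 and lost none. Hedgehog genes kept 5 of 8 and pluripotency factors 4 of 9. Hox genes kept 8 of 22, and their median 0 h value was 82.5. Of the somatic lists, Sertoli markers kept 2 of 7 starts, myoid markers 2 of 5, and endothelial and macrophage markers 1 of 2 each. The median 0 h values of these somatic lists were 126.5, 78.5, 112.75 and 134.5.

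Away from the starts, raised regions were assigned to Chd4, Dnmt3l, Fosb, Meioc, Piwil2, Piwil4 and Zfp462, among other listed genes. The region upstream of Dnmt3l had 182 and 156 at 0 h, then 143 and 130 at 18 h. The regions of the genes named here had lower relative changes than the Stra8 start. Over all genes, starts included, 451 of 18737 kept regions were raised and 81 were lowered. No list had more than 3 raised regions, which were 3 of 58 kept for chromatin enzymes and 3 of 29 for germ cell and piRNA genes. These few regions are not read as a trait of the lists. A single list region was lowered. It lies in Rb1, the gene of the cell cycle brake RB, 93983 bp from the start, and fell from 404 and 385 to 55 and 76, a relative change of -1.32.

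Motif letters were counted on both strands in windows of 200 bases around the summits. The motifs reported were chosen after a wider search of 31 patterns had been seen, so no test is given, and a match is a description and not a bound site. ACANTGT stood in 34.9% of the raised windows, 15.1% of the kept windows that were not called, 15.3% of the lowered, 12.9% of the lost, 18.0% of the gained and 13.8% of the windows of all 81567 regions. Of the 237 raised windows with it, 174 held it once and 27 held it at least 3 times, as the printed Rtn4rl1 window does, and 7 were at a gene start. The share was 36.8% without the regions of the 3 lengths and 38.4% off CpG islands, where the kept regions that were not called had 25.4%. Read the other way, 6.42% of the kept regions with these letters were raised and 2.22% of those without. Among the kept regions in 5 classes of 0 h height these shares were 19.8% and 10.1% in the lowest class and 1.81% and 0.911% in the next. Under quantile normalization 34.9% of the raised windows held the letters, and in the fit of regions with 0 h values of at least 100 it was 34.0%. Over all kept regions with the letters the median relative change was 0.15 against 0.05 for those without. This small difference rested on single libraries, since the median minus that of all kept regions ran from -0.01 to 0.19 when a library was left out.

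TGTTTAC showed the opposite pattern. It stood in 16.0% of the lowered windows, 2.69% of the kept windows not called, 1.62% of the raised, 4.79% of the lost and 3.80% of all. Of the kept regions with it 3.26% were lowered, against 0.479% of those without. The shares lowered were 6.41% and 1.20% in the fourth of the 5 height classes and 5.88% and 0.323% in the highest. The printed windows near Foxp1 and on chromosome 4 are the lowered regions with the largest falls among those with these letters outside families A and C, which are described below, and the one on chromosome 4 is among the regions that define family B. CCAAT stood in 42.7% of the lowered windows, 31.9% of the kept windows not called, 18.9% of the raised and 25.8% of all. Outside families A and C it stood in 35.7% of the lowered windows and 31.5% of the kept windows not called, which is a smaller difference.

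GGGCGG, shown in the Kit window that was moved off the summit, was counted in summit windows like the other letters. It was in 37.6% of the kept windows not called and in 13.5% of the lost, 9.28% of the raised, 10.7% of the lowered and 20.4% of all windows. Off islands the first 2 shares were 16.8% and 10.8%, and in the sixth of the 10 height classes 22.0% of the kept and 18.3% of the lost windows held it. CCGGAA, the letters of ETS factors, was in 14.1% of the kept windows not called, 6.62% of the lost and 8.35% of all, and off islands the first 2 shares were 7.57% and 6.37%. The CTCF motif had the reverse order, with 1.95% of the kept windows, 4.31% of the lost and 2.97% of all, and 2.81% and 4.63% of the kept and lost windows off islands. AGGTCA, the element whose repeats RA receptors and other nuclear receptors bind, was in 25 (19.1%) of the lowered windows, 11.2% of the raised, 8.98% of the kept windows not called and 10.4% of all. The printed family A 3 window holds it, unmarked, on the other strand as TGACCT, and its share outside the families was not counted. Full direct repeats of the DR5 and DR2 kinds, the classical sites of RA receptors, were found in 0.0981% and 0.170% of all windows. Among the raised windows 2 held a DR5 and 3 a DR2, and no lowered window held either.

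**Figure D4:**
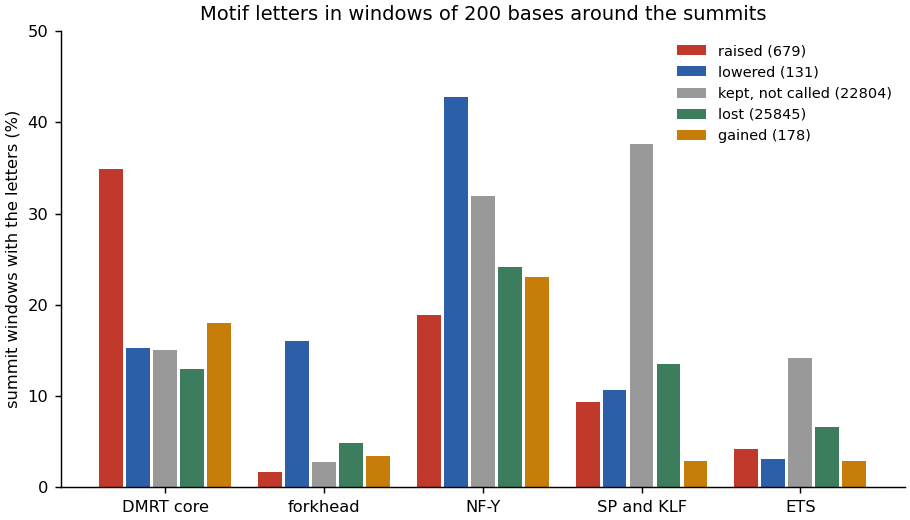
Percent of summit windows of 200 bases that hold the letters of 5 motifs, by group of regions, with the number of regions of each group in the legend. The DMRT core is most frequent in the raised regions (34.9%), the forkhead and NF-Y letters in the lowered regions (16.0% and 42.7%), and the SP and KLF and the ETS letters in the kept regions that were not called.

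Some of the lowered regions were copies of related sequences. Lowered regions that shared at least 20 runs of 12 bases were grouped, and other regions were added where they matched at least 3 of the defining regions in this way. The defining regions are lowered by choice and are left out of the heights and changes that follow. Counts of calls and motif shares cover all members, except in the height classes. Family A was defined by 11 lowered regions and had 232 regions with a peak in both 0 h libraries, on 20 chromosomes, of which 93 were kept, 40 partly kept and 99 lost. Its 82 kept regions that do not define it had median values of 238 and 258.5 at 0 h and 66.5 and 86.5 at 18 h. Their median fall as deposited was 3.17-fold, and the median relative change was -0.38. Of them 77 (93.9%) lay below 0, against 43.0% of all kept regions. No region of family A was raised. In family A 84.9% of the windows held CCAAT and 40.9% held TGTTTAC.

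Family C was defined by 5 lowered regions and had 176 regions, of which 69 were kept and 78 lost. Its 64 kept regions that do not define it had medians of 182.5 and 195.5 at 0 h, then 55 and 73 at 18 h. The median fall was 3.03-fold and the median relative change -0.32, with 57 (89.1%) below 0. Nearly all of its windows, 98.3%, held CCAAT, and none held TGTTTAC. The families had no region in common. A further group, family B, was defined by 10 lowered regions, and its other 196 kept regions had a median relative change of 0.02 and 9 raised members. The height classes that follow leave out the defining regions, all of which were kept. This lowers the family shares from the eighth class up, as no lower class held a lowered region. Family A was kept less often in the sixth class, with 1 of 20 (5%) against 33.0% of all regions. In the seventh class 7 of 28 (25.0%) were kept against 53.4%. It had 12 of 23 (52.2%) against 78.2% in the eighth and 26 of 26 (100%) against 99.6% in the highest. In family C the share was 2 of 26 (7.69%) against 33.0% of all regions in the sixth class and 9 of 24 (37.5%) against 53.4% in the seventh. It was 22.2% against 19.4% in the fifth, 76.0% against 78.2% in the eighth and 95.8% against 94.5% in the ninth.

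**Figure D5:**
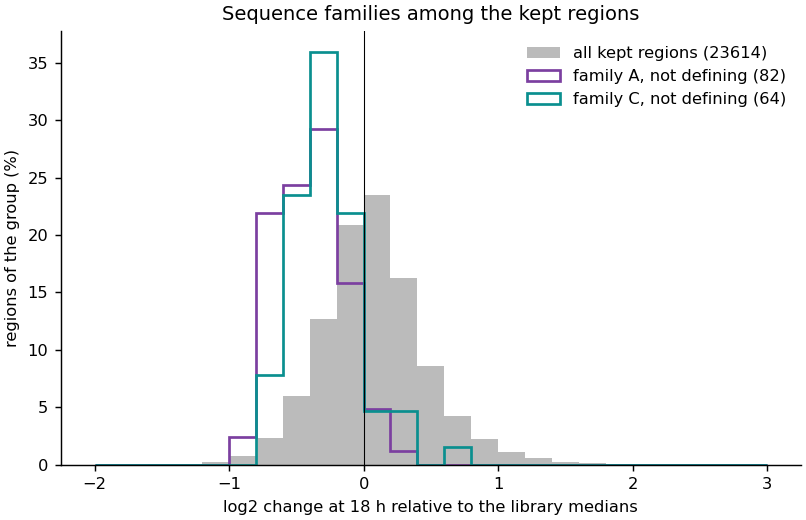
Distribution of the log2 change at 18 h relative to the library medians for all 23614 kept regions (filled) and for the 82 and 64 kept regions of families A and C that do not define them (lines), as percent of each group. Both families lie mostly below 0, with medians of -0.38 and -0.32.

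Relative to the median of all kept regions, family A stood at -0.39 to -0.55 and family C at -0.27 to -0.47 under every scaling, GC correction and leave-one-out fit that was run. The fits without centring, with the median of all peaks and with a replicate block cannot change this measure. They gave the values of the main fit, -0.44 and -0.37. The regions behind the printed family A windows, 466 and 484 bp long, share 85 runs of 12 bases. Those behind the family C windows, 481 and 748 bp long, share 30, so these members are related but not near-identical. According to the methods, duplicates were dropped and only unique reads with both mates entered the analysis. Whether reads were placed at the wrong copy was not tested, so the values of single members may be less certain than those of unique sequence. The families were recognised after the values were seen, and their regions share sequence and are not independent, so no test is given. The forkhead letters were not confined to families A and C. Of the 115 lowered regions outside families A and C, 14.8% held TGTTTAC, against 2.56% of the kept regions outside them that were not called. These 115 include the 10 regions that define family B, and some of those, such as the printed one on chromosome 4, hold the letters. The share outside all 3 families was not counted.

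The same regions were followed at 48 h and 120 h. Of the lost regions 633 (2.45%) had a peak in both 48 h libraries and 1370 (5.30%) in both 120 h libraries, and 18636 had none in the 4 libraries of these timepoints. Of the gained regions 69 (38.8%) had a peak in both 48 h libraries and 77 (43.3%) in both 120 h libraries. Of the raised regions 64.7% and of all kept regions 80.9% had a peak in both 48 h libraries. For the 321 raised regions that had peaks in every library of the series, the median log2 value relative to the library median was -1.36 and -1.63 before RA and 0.05 and -0.32 at 18 h. It was -0.18 and 0.11 at 48 h and -0.22 and -0.17 at 120 h. In the 48 lowered regions of this kind it was 0.25 and 0.15 at 0 h, -0.85 in both 18 h libraries, -0.63 and -0.58 at 48 h and -0.84 and -1.07 at 120 h. In these subsets the later libraries lay near the 18 h values and apart from the 0 h values, which chose the regions. The subsets left out every region that fell under the calling limit later, so a low value at 48 h or 120 h could hardly appear in them. Of the 679 raised regions 46 had no peak in the 4 later libraries, and of the 131 lowered regions 3 had none. Whether the raised regions as a whole held their relative height was not tested.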

How the data were processed

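ATAC-seq of eGFP-sorted germ cells was compared between 2 libraries at 0 h and 2 at 18 h. According to the methods and the submitters' processing notes, the authors aligned reads to mm10 with BWA 0.7.12, brought the libraries to equal tag numbers, extended tags to 200 bp in bins of 32 nt, and called peaks in each library with MACS2 2.1.0 without a control. The deposited values are signal, the tag coverage at each summit and its mean over each peak, with genes assigned within 10 kb. The table has no read counts, so the study's count test was not run and no counting error can be given. The depth behind a single value is unknown.

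Peaks were merged by 1 bp overlap. For the 23614 regions called in each of the 4 libraries, log2 summit values were set relative to library medians and fitted with limma 3.58.1 in R 4.3.3 (lmFit, eBayes, no block, threshold 0.05, two-sided), in the table's own regions in place of reads in merged regions. The fit was tested on simulated data. Coordinates are 1-based, and features at summits are from GENCODE vM21. With 1 mouse per library, the spread between mice cannot be told apart from that between libraries. The eBayes step draws the spread of each region towards a value common to all tested regions. The SE and p-values of a region therefore do not rest on its own 4 values alone. Centring also takes out any shift that a whole library shares. CpG islands were those listed with each peak. Python 3.11.15, pandas 2.3.3 and pysam 0.24.0 were used for the rest.

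Named regions were the 10 largest rises and falls past the threshold, the 5 lost and 5 gained with the highest lower value, list members called, lost or most changed at their starts, and others where stated. The gene starts outside the lists, the motifs, the lengths and the families were chosen after their values were seen. The comparison, its gene lists and its tests were chosen with earlier results of these data known. Alternatives were other scalings, filters, overlaps, start limits, a replicate block and each library left out. The listed genes Mcm4, Aurka, Rpl15, Star, Cyp11a1 and Hsd3b1 were not analysed here. The labels give a larger number of cells per library than the methods. Some items are not reported here.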

Additional observations from a re-analysis of the deposited data

How the results depend on the processing

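The raised count of 679 and the lowered count of 131 moved by more than 1.5 times under most other settings. They became 58 and 21848 without centring, 126 and 41 with quantile normalization, 148 and 27 with cyclic loess, 100 and 19919 with the median of all peaks, 194 and 35 in the 8-library fit, 381 and 46 with values of at least 50, and, in fits added after the data were seen, 94 and 77 with 0 h values of at least 100 and 18 and 80 with at least 200. Leaving out 1 library gave 77 to 1215 raised and 4 to 418 lowered. The mean signal of the peak, the GC trend, an intensity trend, summit windows and leaving out the 3 lengths kept both counts within 1.5 times. Of the 22 regions tested by name, none changed sign in the fits that included it, but the filters on low values, the 8-library fit and the fit without the 3 lengths held only 10 to 18 of them. All 22 were picked from the calls of the main fit on the same libraries, most for their large changes. A change of sign was therefore unlikely from the start. Stra8 and Kit lost their calls without centring and with the median of all peaks, and 9 calls were lost without 18 h replicate 1.

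The kept share of 39.9% became 28.7% with an overlap of 50% of both peaks, 77.8% with equal numbers of peaks and 81.6% with both 0 h values at 100 or more (added), and 33.4% to 52.6% without 1 library. The difference in the share of peaks with no gene, 18 h minus 0 h, was -9.37 points and turned to 0.133 with equal numbers of peaks. The gene start difference of 38.5 points became 4.22 within height classes and 33.1 with a limit of 3000 bp, and 36.0 to 41.3 without 1 library. The island difference of 39.9 became 3.86 within height classes and 37.3 to 43.6 without 1 library.

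Replicate numbers do not pair the samples by any label, and the deviations of the replicate 1 libraries correlated at 0.176 over regions. With a replicate block the counts were 1597 raised and 515 lowered, and with the block and the GC trend removed 1552 and 504. The number of tags behind a value, which limits its precision, is not known, and a region that fell under the calling limit has no value to test.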
